A study of Mus musculus with 4 samples.

Results

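Taste-type signalling is the set of proteins by which tuft cells, like the taste cells of the tongue, turn a chemical stimulus into a calcium signal. The genes described here were the 9 members Gnat3, Gnb3, Gng13, Plcb2, Itpr3, Trpm5, Rgs13, Avil and Dclk1, chosen by name and matched to the gene symbols of the 4 droplet-based scRNA-seq libraries, in which all 9 were found among 31053 listed genes. The libraries held thymic epithelial cells (TECs) of C57BL/6 mice at 6 weeks of age, a sex being given for the wild-type mice alone (female), sorted as EpCAM+ CD45- TER119-, with the cells of 3 mice pooled into 1 library per condition. WT-Control mice were wild type and received a control IgG. WT-RANKL-Ab mice were wild type and received an antibody that neutralizes RANKL. Cd40-/- Control and Cd40-/- RANKL-Ab mice lacked CD40 in every cell and received the IgG or the antibody. Both reagents were injected under the skin at 5 mg/kg, 2 weeks before the thymus was taken. RANKL and CD40 ligand are cytokines that act through RANK and CD40 on medullary TECs (mTECs), and the design asks what the TECs look like when one or both signals are missing. With 1 library per condition there is no replicate. No test between conditions was possible, and every interval below is a 95% interval for counting error alone, without the spread between mice.

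In a taste cell, a bitter, sweet or umami receptor acts on the heterotrimeric G protein gustducin. Its beta and gamma subunits switch on a phospholipase C, which releases the second messenger IP3. IP3 opens a receptor on the endoplasmic reticulum, and the calcium that leaves it opens the cation channel TRPM5. Tuft cells of the gut and airway use these same proteins, and mTECs of the thymus include a tuft-like type that depends on the transcription factor Pou2f3.

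The cells were gated by marker genes, none of which was a member. A cell was called tuft-gated when it held at least 4 of 11 tuft cell genes (among them Pou2f3, Sh2d6, L1cam, Alox5ap, Ltc4s, Bmx, Gfi1b, Il25, Ovol3 and Chat). It also had to fail the gates for thymocytes, cortical TECs and microfold, neuroendocrine, ciliated, keratinocyte and enterohepatic cells. Cells that also met the limits for cycling genes, Aire or Ccl21a stayed tuft-gated. The gate kept 474 of 10218 cells in WT-Control, which is 4.64% (4.24% to 5.06%). It kept 574 of 7164 cells in WT-RANKL-Ab, or 8.01% (7.39% to 8.67%), 249 of 8591 in Cd40-/- Control, or 2.90% (2.55% to 3.28%), and 54 of 2082 in Cd40-/- RANKL-Ab, or 2.59% (1.95% to 3.37%). The intervals of the Cd40-/- libraries overlapped each other and lay below that of WT-Control, and that of WT-RANKL-Ab lay above the other libraries. The size of a share depended on the gate, as 1.83%, 4.77%, 1.43% and 1.25% after thinning each cell at random to 1000 UMIs and 3.06%, 5.85%, 1.86% and 2.16% with a list of 7 tuft genes, with the libraries in the order above. WT-RANKL-Ab stayed apart from and above the others under all 11 alternatives run, but the interval of Cd40-/- Control met that of WT-Control after thinning, and that of Cd40-/- RANKL-Ab did so after thinning, with 7 genes and with a gate of 6 markers. A share depends on the numbers of all other cells, so it is not a count of tuft cells per thymus.

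The class was checked against its own and other markers. Over the tuft-gated cells the median number of tuft genes held was 7 or 8 in each library, and all 11 were detected in each. Epcam, the epithelial gene used in the sort, had a median of 8.25 to 18.0 UMIs per 10000. The median cell held 0 thymocyte genes, and the 11 thymocyte genes summed to 24.1 to 44.3 UMIs per 1000000 of the class (CPM) against 5354 to 8659 CPM in thymocyte-gated cells. Medians for genes of microfold, neuroendocrine, ciliated, keratinocyte and enterohepatic cells and of cycling were also 0 in each library, as were those for Aire and Fezf2. Other TEC markers were present. The 7 cTEC genes, known from cortical TECs, had a median of 1 to 1.5 detected per cell and summed to 328 to 496 CPM. Ccl21a stood at 1792 to 3711 CPM, and the median cell held it in each library but Cd40-/- Control. The part of these transcripts in the values below was not tested. The 9 genes of myeloid and B cells, some of which tuft cells share, summed to 128 to 337 CPM with a median of 1 detected per cell. Of the cells outside the thymocyte gate, those with exactly 3 tuft genes, just outside the tuft gate, numbered 80 in WT-Control, 58 in WT-RANKL-Ab, and in the Cd40-/- mice 38 with the IgG and 2 with the antibody. This order of libraries is kept wherever 4 values follow each other. In WT-Control the summed level of the 9 members was 230 CPM in cells with 2 tuft genes, 944 CPM with 3, 3107 CPM with 4 and 6659 CPM with 6, against 75.7 CPM in cells with none.

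Depth was similar among tuft-gated cells, with medians of 7383, 6298, 5647 and 6818.5 UMIs per cell. The sums behind the levels differed more, at 4333569, 4058690, 1690821 and 405959 UMIs, so values of the last library are the least precise. Barcodes found in more than 1 library made up 2.34%, 2.96%, 4.77% and 11.6% of the cells. The Cd40-/- libraries shared 205 of them with each other, and 8, 16, 3 and 1 of the tuft-gated cells carried such a barcode. The deleted gene, Cd40, was at 110 and 28.8 CPM over all cells of the wild-type libraries, with the IgG and the antibody, and at 5.75 and 4.75 CPM in those of the Cd40-/- libraries. Despite the sort for CD45- cells, 141, 437, 828 and 320 cells passed the thymocyte gate. They serve below as a background class, except for Plcb2 and Itpr3, which they held at 4.62 to 7.20 CPM and 12.4 to 19.4 CPM. This class was not free of epithelial RNA, with Epcam at 295, 138, 181 and 133 CPM. It also kept cells that passed another gate, among them 1, 3, 3 and 0 that passed the tuft gate.

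The members differed in their promoters, as the sequences around the start sites show. Of the 9 members, 8 had 1 or more promoters of 300 bases in RefSeq on GRCm38.p6, for a total of 10. In these, 8 of 10 held 6 or fewer CG dinucleotides, as did 47.9% of all 32851 promoters in the table. The exceptions were Itpr3, with 30, and the downstream one of the Gng13 promoters, with 34, and 11.7% of all promoters held 30 or more. Trpm5 and Rgs13 are shown as promoters poor in CG, and Itpr3, the member with the broadest expression below, as one rich in CG. Each runs 5′ to 3′ along the gene from 250 bases before to 50 bases after the start site, with CG dinucleotides in capitals. The Trpm5 promoter lies at chr7:143094593-143094892 on the minus strand with 5 CG, that of Rgs13 at chr1:144177323-144177622 on the minus strand with 0, and that of Itpr3 at chr17:27057054-27057353 on the plus strand.
Trpm5: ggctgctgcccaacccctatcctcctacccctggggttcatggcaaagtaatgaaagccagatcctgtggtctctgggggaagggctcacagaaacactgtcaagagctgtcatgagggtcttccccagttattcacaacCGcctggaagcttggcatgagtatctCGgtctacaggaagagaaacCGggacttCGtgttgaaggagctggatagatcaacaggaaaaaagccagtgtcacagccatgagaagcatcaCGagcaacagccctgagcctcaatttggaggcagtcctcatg
Rgs13: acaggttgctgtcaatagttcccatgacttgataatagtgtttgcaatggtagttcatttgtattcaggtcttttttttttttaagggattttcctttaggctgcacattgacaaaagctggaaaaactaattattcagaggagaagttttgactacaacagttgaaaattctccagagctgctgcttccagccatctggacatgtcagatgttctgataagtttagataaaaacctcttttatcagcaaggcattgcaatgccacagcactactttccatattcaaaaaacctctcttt
Itpr3: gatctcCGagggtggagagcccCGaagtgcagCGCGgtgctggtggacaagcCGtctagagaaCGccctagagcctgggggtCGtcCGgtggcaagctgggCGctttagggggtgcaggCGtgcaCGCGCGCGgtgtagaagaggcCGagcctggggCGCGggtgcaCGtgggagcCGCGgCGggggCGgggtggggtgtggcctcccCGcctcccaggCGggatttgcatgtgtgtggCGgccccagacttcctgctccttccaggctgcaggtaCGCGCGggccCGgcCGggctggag

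POU factors such as Pou2f3 are known to bind the octamer ATGCAAAT. It was searched on both strands, as ATGCAAAT and ATTTGCAT. It occurred in 1.74% of all promoters and in 1 of the 10 promoters of members, that of Itpr3. Its first 7 letters, searched as ATGCAAA and TTTGCAT, occurred in 4.63% of all promoters and in that of Itpr3 and of Avil, with 2 places in Avil. Only 0.292% of all promoters held 2 or more. The places are shown with the 7 letters in capitals, at chr10:127000584-127000610 upstream of Avil, at chr10:127000684-127000710 near the Avil start site and at chr17:27057268-27057294 in Itpr3, all on the plus strand.
Avil, upstream: ttttcgctgtTTTGCATaggagcagat
Avil, start site: tgtggttatgATGCAAAcacaagcaaa
Itpr3: ccaggcgggaTTTGCATgtgtgtggcg
A match is a run of letters and not a measured binding site, and windows this short leave out enhancers.

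Gnat3 encodes the alpha subunit of gustducin, the G protein that couples taste receptors to the pathway (chr5:17962549-18019834 on GRCm38). In tuft-gated cells it stood at 420 CPM (401 to 439) in WT-Control, 758 (732 to 785) in WT-RANKL-Ab, 511 (477 to 546) in Cd40-/- Control and 680 (602 to 765) in Cd40-/- RANKL-Ab. The order was WT-Control, Cd40-/- Control and then the antibody-treated libraries, whose intervals overlapped. In all other classes together Gnat3 was at 0.214 to 2.15 CPM, so the tuft-gated level was 342-fold higher in WT-Control and 3182-fold (1229 to 11760) in Cd40-/- RANKL-Ab, where only 4 UMIs lay outside the gate.

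Gnb3 encodes a beta subunit that pairs with gustducin in taste cells (chr6:124834240-124840275). It stood at 861 CPM (834 to 889) in WT-Control, 1360 (1324 to 1396) in WT-RANKL-Ab, 782 (740 to 825) in Cd40-/- Control and 1175 (1072 to 1285) in Cd40-/- RANKL-Ab. No pair of these intervals overlapped, and both antibody-treated libraries lay above both controls.

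Gng13 encodes the gamma subunit of the same G protein (chr17:25717171-25719406). Its level was 1993 CPM (1951 to 2035) in WT-Control, 1474 (1437 to 1512) in WT-RANKL-Ab, 1020 (973 to 1070) in Cd40-/- Control and 2892 (2729 to 3062) in Cd40-/- RANKL-Ab. The intervals were apart in every pair. The gene was thus lowest in Cd40-/- mice with the control IgG and highest in Cd40-/- mice with the antibody, 2.83-fold above them. Among cells with at least 2000 UMIs the median cell held 19.1, 14.7, 9.51 and 26.3 Gng13 UMIs per 10000 in the order of the libraries. These medians ranked the libraries as the levels did. The lowest 10% of cells held at most 4.17, 4.37, 2.19 and 10.3, with WT-RANKL-Ab slightly above WT-Control. After thinning to 1000 UMIs a cell, 78.7%, 70.9%, 57.8% and 85.2% of tuft-gated cells held a Gng13 UMI, against 1.50%, 1.27%, 0.750% and 0 of 300 thymocyte-gated cells, which allows up to 1.00%.

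Plcb2 encodes the phospholipase C of the pathway (chr2:118707517-118728438). Its levels lay close together, at 178 CPM (166 to 191) in WT-Control, 190 (150 to 237) in Cd40-/- RANKL-Ab, 219 (197 to 242) in Cd40-/- Control and 234 (219 to 249) in WT-RANKL-Ab. The interval of Cd40-/- RANKL-Ab, with 77 UMIs, overlapped those of the other 3 libraries, and those of Cd40-/- Control and WT-RANKL-Ab overlapped each other.

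Itpr3 encodes the IP3 receptor named for taste cells (chr17:27057304-27122223), and it was the member with the fewest UMIs in tuft-gated cells. It stood at 27.5 CPM (22.7 to 32.9) in WT-Control, 37.9 (32.2 to 44.4) in WT-RANKL-Ab, 45.5 (35.9 to 56.9) in Cd40-/- Control and 14.8 (5.42 to 32.2) in Cd40-/- RANKL-Ab. The last value rests on 6 UMIs, and its interval overlapped that of WT-Control. Itpr3 was only 1.73-fold to 4.07-fold higher in tuft-gated cells than elsewhere, and in Cd40-/- RANKL-Ab that interval, 0.625 to 3.85, included 1.

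Trpm5 encodes the calcium-activated cation channel that depolarizes the cell (chr7:143069153-143094642). It stood at 315 CPM (299 to 332) in WT-Control, 375 (346 to 405) in Cd40-/- Control, 547 (525 to 571) in WT-RANKL-Ab and 589 (516 to 668) in Cd40-/- RANKL-Ab. The intervals of the antibody-treated libraries overlapped each other and lay above both controls, which were apart from each other.

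Rgs13, Avil and Dclk1 are not steps of the cascade but are known from tuft cells. Rgs13 encodes a regulator that shortens G protein signalling (chr1:144138654-144177372). It stood at 1614 CPM (1577 to 1653) in WT-Control, 2209 (2163 to 2255) in WT-RANKL-Ab, 1226 (1174 to 1280) in Cd40-/- Control and 2660 (2504 to 2824) in Cd40-/- RANKL-Ab, with no overlap of intervals. As for Gng13, Cd40-/- Control was lowest and Cd40-/- RANKL-Ab highest. Avil encodes advillin, an actin-binding protein of the apical tuft (chr10:127000709-127020994). Its levels were 833 CPM (806 to 860), 1271 (1236 to 1306), 994 (947 to 1042) and 1439 (1324 to 1560) in the same order of libraries, each apart from the others. Dclk1 encodes a microtubule-associated kinase (chr3:55242364-55539068). Its levels were 536 CPM (514 to 558), 871 (843 to 900), 929 (883 to 976) and 1067 (968 to 1172). WT-Control was lowest, and the neighbours WT-RANKL-Ab and Cd40-/- Control overlapped, as did Cd40-/- Control and Cd40-/- RANKL-Ab. UMIs mark the 3′ ends of transcripts and were not divided by gene length, so these levels rank libraries within a gene and not one gene against another. On GRCm38, Trpm5, Gng13, Itpr3, Avil and Dclk1 overlap genes on the opposite strand (Tssc4, Chtf18, Itpr3os, Tsfm, and the predicted genes Gm21954 and Gm42609), and Dclk1 and Itpr3 also overlap short or predicted genes on their own strand.

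**Figure D1:**
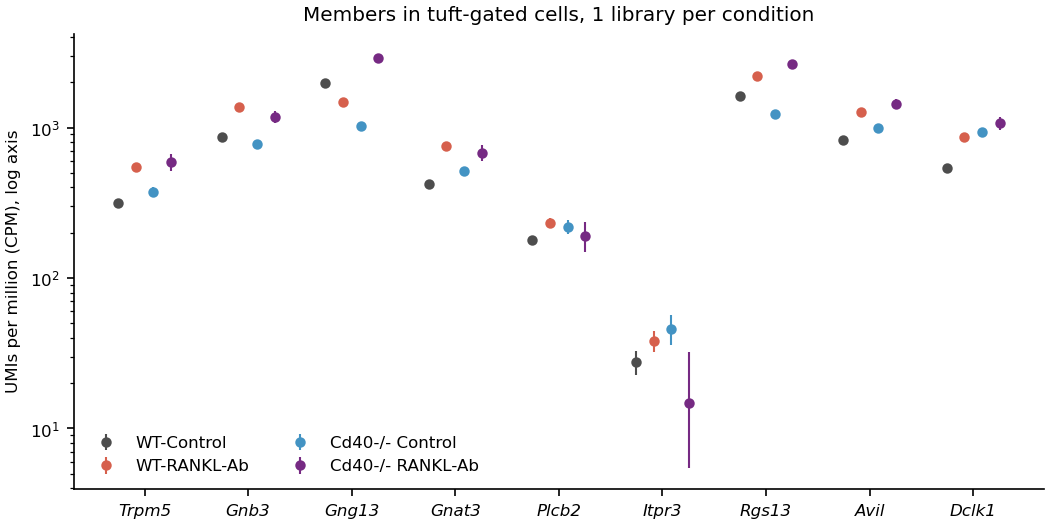
Level of each member in tuft-gated cells (vertical axis, CPM on a log axis) in the 4 libraries, with 95% counting intervals and 1 library per condition. Gng13 runs from 1020 CPM in Cd40-/- Control to 2892 CPM in Cd40-/- RANKL-Ab, and Itpr3 lies between 14.8 and 45.5 CPM.

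RANKL neutralization in wild-type mice went with higher levels of 8 members and a lower level of Gng13. In WT-RANKL-Ab over WT-Control the log2 ratios of the 8 ran from 0.39 (0.25 to 0.53) for Plcb2 to 0.85 (0.77 to 0.94) for Gnat3, and Gng13 was at -0.44 (-0.48 to -0.39). The summed level of the 9 was 8762 CPM against 6777 CPM, a log2 ratio of 0.37 (0.35 to 0.39). The whole interval lay above 0 for 8 of 9 members and for 25% of all 12347 genes for which these libraries held 20 or more UMIs in sum, and the median log2 ratio was 0.61 over the members and 0.11 over all genes. Whether an interval clears 0 depends on the number of UMIs. The members held from 154 and 119 UMIs for Itpr3 to 8964 and 6996 for Rgs13. All genes were not matched to them for UMIs, here or in the later comparisons. None of the members was past 2-fold, meaning a log2 ratio of at least 1 in size with an interval apart from 0, where 3.21% of all genes were past 2-fold higher and 7.02% lower. The 11 tuft gate genes, which chose the cells, summed to 4387, 5905, 4542 and 5786 CPM in tuft-gated cells in the order of the libraries. Their sum was thus also higher with the antibody in both genotypes.

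The lack of CD40 alone went with a mixed pattern. In Cd40-/- Control over WT-Control, 6 members had their whole interval above 0 (21.8% of all genes) and 3 below 0 (12.0%). The lower ones were Gng13 at -0.97 (-1.04 to -0.89), Rgs13 at -0.40 (-0.47 to -0.33) and Gnb3 at -0.14 (-0.23 to -0.05). The call for Gnb3 was lost with the list of 7 tuft genes, where its log2 ratio was 0.0024 (-0.10 to 0.11). After thinning to 1000 UMIs, 3 members had the interval above 0 and 3 below, and the shares over all genes were not computed. Dclk1 was the highest, at 0.79 (0.70 to 0.89). None was past 2-fold, against 4.97% of all genes higher and 3.53% lower. Gng13 lay at the edge of this limit.

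With both signals reduced, Cd40-/- RANKL-Ab over WT-Control gave 7 members with the whole interval above 0 (12.9% of all genes) and none below. The log2 ratios of the 7 ran from 0.45 (0.31 to 0.59) for Gnb3 to 0.99 (0.84 to 1.14) for Dclk1. Plcb2, at 0.09 (-0.27 to 0.43), and Itpr3, at -0.89 (-2.37 to 0.27), could not be placed on either side of 0. None was past 2-fold, against 5.66% of genes higher and 5.9% lower, and the median was 0.70 over the members and 0.04 over all genes.

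Within the Cd40-/- mice, 3 members were past 2-fold with the antibody. In Cd40-/- RANKL-Ab over Cd40-/- Control, Gng13 was higher with a log2 ratio of 1.50 (1.39 to 1.61) and Rgs13 with 1.12 (1.01 to 1.22), and Itpr3 was lower with -1.62 (-3.11 to -0.44). The background was 3.99% of 9094 genes past 2-fold higher and 7.31% lower. After thinning to 1000 UMIs only Gng13 was past 2-fold, at 1.49 (1.20 to 1.77), while Rgs13 was at 0.93 (0.65 to 1.21) and Itpr3 had 0 UMIs left in Cd40-/- RANKL-Ab. Rgs13 also fell short of 2-fold with the list of 7 tuft genes, without the 5% of cells with most UMIs and with the mean of each cell's CPM. The whole interval lay above 0 for 7 members and for 10.7% of genes, and for 4 members after thinning. Shares over all genes were not computed after thinning. Against WT-RANKL-Ab, the same library had 4 members with the interval above 0 (6.15% of genes), led by Gng13 at 0.97 (0.88 to 1.06), while Gnb3 was at -0.21 (-0.35 to -0.08). Itpr3 was past 2-fold lower there, at -1.36 (-2.83 to -0.21), against 3.03% of genes, and no member was past 2-fold higher, against 2.15%. These comparisons share libraries, so their values are not independent of each other.

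**Figure D2:**
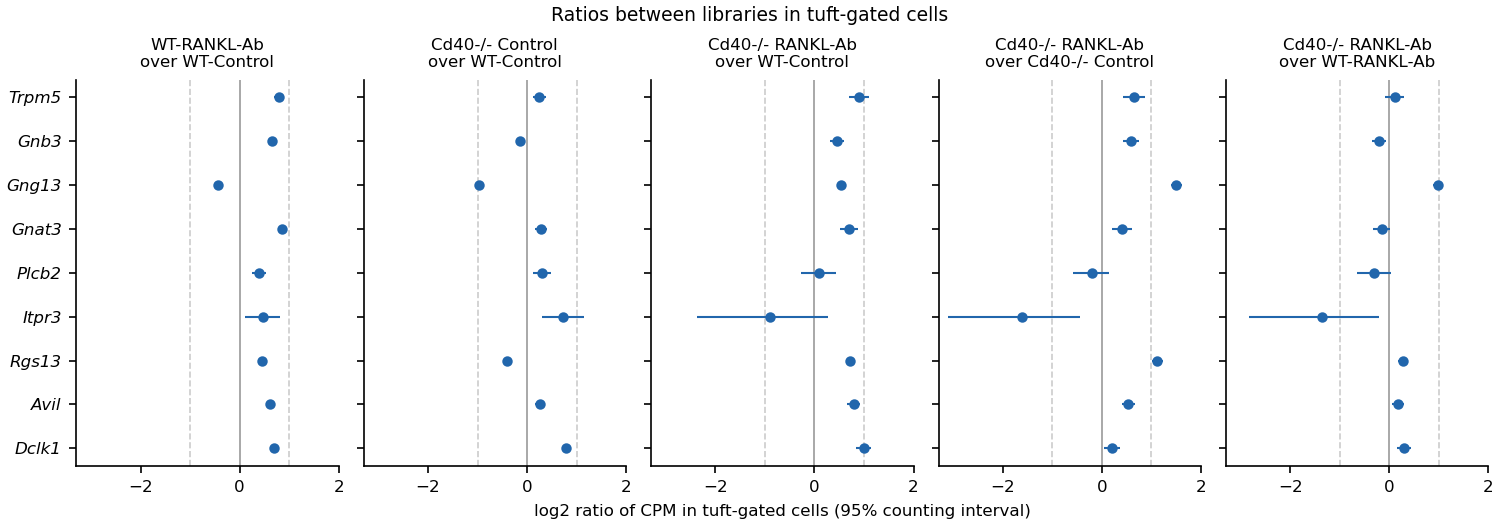
log2 ratios of the members in tuft-gated cells for 5 pairs of libraries (horizontal axis), with 95% counting intervals. Solid lines mark equal levels and dashed lines a 2-fold difference, and Gng13 lies at -0.44 in WT-RANKL-Ab over WT-Control but at 1.50 in Cd40-/- RANKL-Ab over Cd40-/- Control.

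Most tuft-gated cells held several members. Whether the members met in a cell more often than their separate shares give was not tested. Each cell was thinned to 1000 UMIs so that depth did not set the number detected. The share of tuft-gated cells with 5 or more of the 9 members was then 29.6% (139 of 470 cells) in WT-Control, 44.1% (250 of 567) in WT-RANKL-Ab, 32.5% (81 of 249) in Cd40-/- Control and 48.1% (26 of 54) in Cd40-/- RANKL-Ab. Without thinning the shares were 90.3%, 93.4%, 89.96% and 98.1%. In Ccl21a-high cells, the class that makes the chemokine CCL21A (at least 20 Ccl21a UMIs per 10000), 87.3% to 91.0% of thinned cells held no member, and in thymocyte-gated cells 94.4% to 96.7% held none. Among tuft-gated cells, 17, 4, 8 and 0 held none in the order of the libraries.

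**Figure D3:**
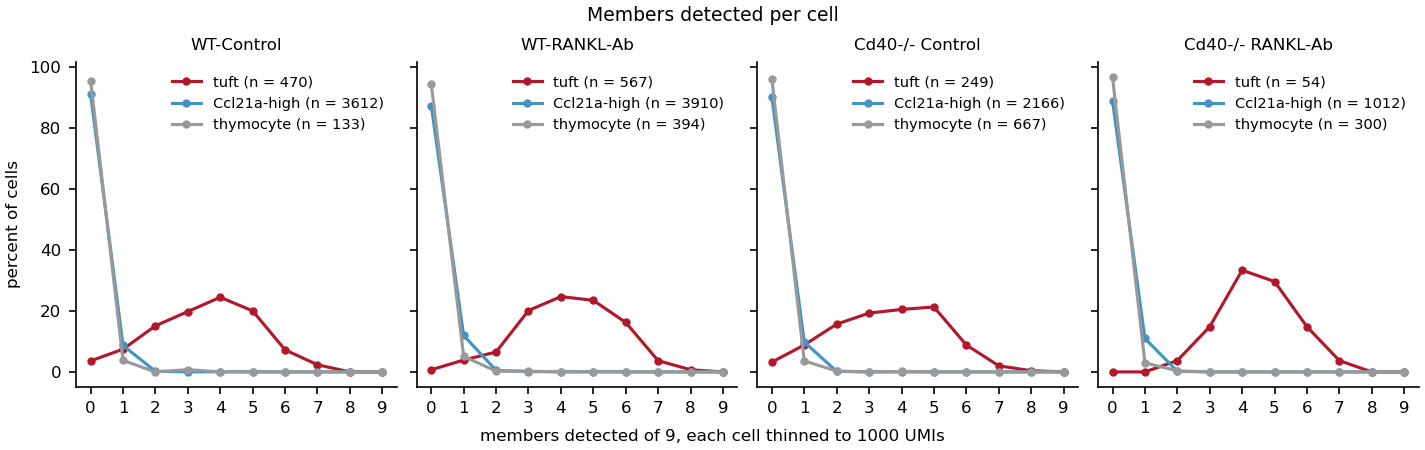
Percent of cells (vertical axis) by the number of the 9 members detected (horizontal axis) after thinning each cell to 1000 UMIs, for tuft-gated, Ccl21a-high and thymocyte-gated cells of each library. Tuft-gated cells peak at 4 or 5 members, whereas most cells of the other classes hold none.

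The G protein subunits were unevenly spread among tuft-gated cells. Without thinning, Gng13 was detected in 94.4% to 98.1% of them, Avil in 95.2% to 100% and Rgs13 in 90.8% to 98.1%, whereas Gnat3 was detected in 50%, 61.7%, 53.4% and 66.7% in the order of the libraries. The median WT-Control cell with at least 2000 UMIs held 0.617 Gnat3 UMIs per 10000, and the cell at the 90th percentile held 14.9. Gnb3 had the like spread, with 3.09 at the median and 26.3 at the 90th percentile. Gnb3 and Gnat3 went together from cell to cell, with Spearman correlations of 0.48, 0.57, 0.44 and 0.56 over 457, 534, 238 and 53 cells. Dclk1 and Gnat3 did not, with -0.04, -0.23, -0.06 and -0.37. Cells of 1 library share depth and preparation, so these correlations are descriptions and carry no test. After thinning to 1000 UMIs, Itpr3 was detected in 3.40%, 3.70% and 2.81% of tuft-gated cells and in 0 of 54 in Cd40-/- RANKL-Ab, which allows a share of up to 5.56%. Thymocyte-gated cells had 0.752%, 0.508%, 1.65% and 1.33%, and the intervals of the 2 classes were apart in WT-RANKL-Ab, at 2.31% to 5.61% against 0.0615% to 1.82%, and overlapped in the other libraries. Without thinning, Itpr3 was in 17.1%, 18.8%, 22.5% and 11.1% of tuft-gated and in 20.6%, 11.0%, 16.3% and 14.1% of thymocyte-gated cells.

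Members other than Itpr3 marked tuft-gated cells off from the rest. In each library 8 of 9 members were at least 8-fold higher in tuft-gated cells than in all other classes together, whereas 1.95%, 4.43%, 2.1% and 3.71% of all genes met this in the order of the libraries. In WT-Control the folds ran from 19.97 (18.9 to 21.2) for Dclk1 and 63.8 (61.2 to 66.7) for Gng13 to 363 (328 to 403) for Rgs13. The gate chose cells by other tuft genes, so a high level of known tuft genes in them describes the class. Tuft-gated cells were 4.64% of the WT-Control cells and held 92.9% of its Gnat3 UMIs, 92.8% of Rgs13 and 84.7% of Trpm5, but 48.3% of Dclk1 and 9.09% of Itpr3. In Cd40-/- RANKL-Ab they held 97.5%, 95.1%, 92.6%, 31.5% and 3.57%.

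**Figure D4:**
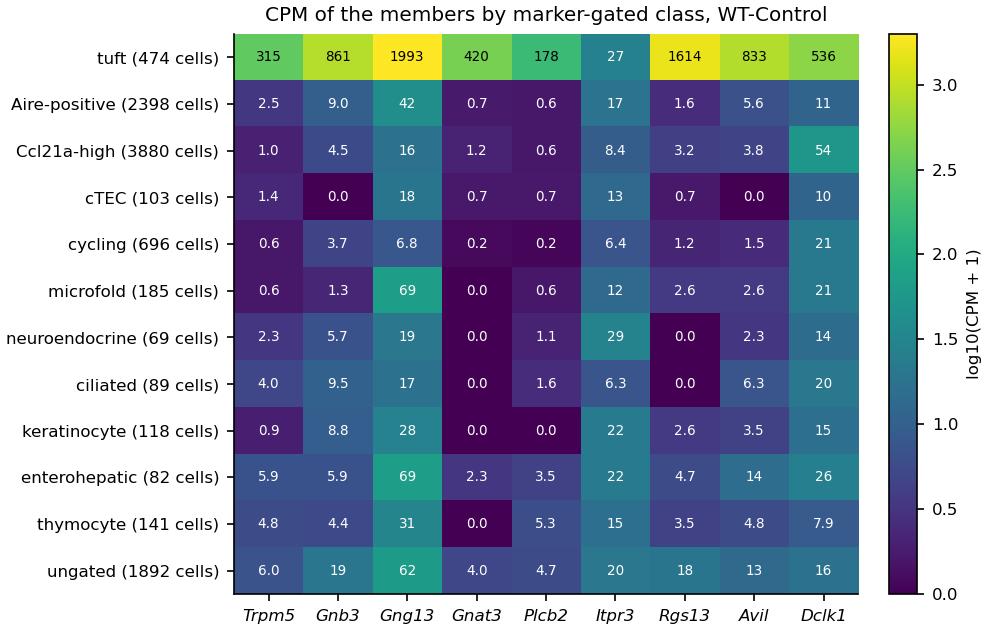
Level of each member in the marker-gated classes of WT-Control, printed in CPM and coloured by log10(CPM + 1), with classes as rows and the number of cells in brackets. Tuft-gated cells lead for each member except Itpr3, which is at 28.7 CPM in neuroendocrine-gated cells, and Dclk1 stands at 54.2 CPM in Ccl21a-high cells.

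Outside tuft-gated cells the members did not keep the ratios they had inside. In WT-Control Ccl21a-high cells Dclk1 was at 10.1% of its tuft-gated level and Itpr3 at 30.7%, while Rgs13 was at 0.200%, Gnat3 at 0.276% and Trpm5 at 0.322%. The sum of the 11 tuft gate genes was at 0.716% of its tuft-gated level there. Dclk1 was at 12.5%, 7.15% and 9.41% in Ccl21a-high cells of the other libraries, where the gate genes were at 0.498%, 0.447% and 0.225%. Cells that passed no gate held somewhat more of the members, as 62.0 CPM of Gng13 and 17.9 CPM of Rgs13 in the 1892 such cells of WT-Control, and they include those with 1 to 3 tuft genes.

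Dclk1 was the member with the clearest level elsewhere. In Ccl21a-high cells it stood at 54.2 CPM (51.5 to 57.0) in WT-Control, 109 (105 to 113) in WT-RANKL-Ab, 66.4 (62.2 to 70.8) in Cd40-/- Control and 100.4 (93.6 to 108) in Cd40-/- RANKL-Ab. In thymocyte-gated cells, taken as the background, it stood at 7.88, 12.2, 5.71 and 3.04 CPM in the same order. After thinning to 1000 UMIs, 6.15% (5.38% to 6.98%), 9.23%, 7.53% and 10.4% (8.56% to 12.4%) of Ccl21a-high cells held a Dclk1 UMI, against 1.50%, 1.52%, 0.750% and 1.33% of thymocyte-gated cells. Without thinning the Ccl21a-high shares were 27.6%, 38.5%, 25.03% and 42.3%. Before thinning, the median depth was 6056, 6054, 5319 and 7370 UMIs in Ccl21a-high cells and 13426, 7465, 9217 and 6059.5 in thymocyte-gated cells. The class with more Dclk1 was thus the shallower in each library but Cd40-/- RANKL-Ab, where it was the deeper.

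The antibody went with a higher Dclk1 level in these cells too. The log2 ratio was 1.01 (0.92 to 1.10) in wild-type mice and 0.60 (0.46 to 0.73) in Cd40-/- mice, and 2.36% and 3.38% of all genes were past 2-fold higher in the same comparisons. Of the Ccl21a-high cells with a Dclk1 UMI, 11.9%, 9.75%, 9.58% and 12.4% also held a tuft gate gene in the order of the libraries, against 9.79%, 11.6%, 7.24% and 5.03% of those without, so the share was higher with Dclk1 in 3 libraries and lower in WT-RANKL-Ab. Of the 1071, 1620, 595 and 437 cells with Dclk1, 7, 11, 2 and 0 held 3 or more other members. Cells with Dclk1 were the deeper ones in each library, as in WT-Control, with a median of 7625 UMIs against 5476. In other large classes Dclk1 was lower, at 20.9, 64.1 and 23.7 CPM in cycling cells of WT-Control, WT-RANKL-Ab and Cd40-/- Control, at 10.4, 18.3, 9.11 and 15.3 CPM in cTEC-gated cells, which carry genes of cortical TECs, and at 10.7, 11.9 and 19.0 CPM in Aire-positive cells of the 3 libraries with at least 20 of them.

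Gng13 was seen at a low level in microfold-gated, enterohepatic-gated, keratinocyte-gated and Aire-positive cells. Microfold-gated cells express genes of the antigen-sampling cells of the gut. In them Gng13 stood at 68.6 CPM (56.2 to 82.96) in WT-Control and 62.3 (47.3 to 80.6) in Cd40-/- Control, and at 17.2 (2.09 to 62.2) in WT-RANKL-Ab, where it rests on 2 UMIs. Enterohepatic-gated cells, with genes of gut and liver, had 69.3 CPM (52.7 to 89.4) in WT-Control and 137 (97.0 to 188) in Cd40-/- Control. Keratinocyte-gated cells had 28.1 CPM (19.2 to 39.7) in WT-Control and 57.6 (40.8 to 79.1) in Cd40-/- Control. In WT-RANKL-Ab they had 5.11 CPM (0.129 to 28.5), from 1 UMI. Aire-positive cells had 42.1 (39.7 to 44.7), 31.2 (22.5 to 42.2) and 24.2 (21.7 to 26.8) CPM in WT-Control, WT-RANKL-Ab and Cd40-/- Control. Thymocyte-gated cells had 31.1 (24.3 to 39.2), 10.2, 8.63 and 0.468 CPM in the 4 libraries, so in WT-Control the margin over this background was narrow. Keratinocyte-gated cells of WT-Control did not exceed it. The part of epithelial RNA and of cells passing the tuft gate in this background was not tested. At 1000 UMIs a cell, 4.15% (3.38% to 5.04%) of Aire-positive and 1.50% (0.183% to 5.33%) of thymocyte-gated cells of WT-Control held Gng13, and these intervals overlapped. In Cd40-/- Control the shares were 2.74% (1.98% to 3.68%) and 0.750% (0.244% to 1.74%) and did not. Without thinning they were 21.2% and 14.9% in WT-Control, with median depths of 10953 and 13426 UMIs, and 13.7% and 2.90% in Cd40-/- Control. Ccl21a-high cells, at 16.4, 7.44, 4.16 and 1.74 CPM, were below the thymocyte-gated cells in 3 libraries.

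Itpr3 was present in every class with at least 100 cells. In Aire-positive cells it stood at 16.8 (15.3 to 18.5), 20.1 (13.2 to 29.2) and 24.6 (22.2 to 27.3) CPM in WT-Control, WT-RANKL-Ab and Cd40-/- Control. Ccl21a-high cells had 8.44 (7.39 to 9.59), 5.85 (4.95 to 6.86), 14.2 (12.3 to 16.3) and 5.84 (4.29 to 7.76) CPM in the 4 libraries, and thymocyte-gated cells had 14.9, 14.0, 19.4 and 12.4 CPM. In each of these classes Cd40-/- Control was the highest, as it was in tuft-gated cells. In the Ccl21a-high class its interval lay apart from the other 3.

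Plcb2 was higher in thymocyte-gated cells than in Ccl21a-high cells. Phospholipase C beta 2 is known from blood cells as well as taste cells. Thymocyte-gated cells had 5.25 (2.71 to 9.18), 7.20 (5.04 to 9.97), 4.62 (3.27 to 6.34) and 7.02 (4.73 to 10.0) CPM in the 4 libraries. Ccl21a-high cells had 0.616 (0.359 to 0.986), 1.05 (0.689 to 1.52) and 0.287 (0.0781 to 0.734) CPM, and 0 UMIs in Cd40-/- RANKL-Ab, which allows up to 0.373 CPM. The intervals of these 2 classes did not overlap in any library. Gnat3, Gnb3, Trpm5, Rgs13 and Avil were each below 10 CPM in Ccl21a-high, cTEC-gated and thymocyte-gated cells of each library. In Ccl21a-high cells Gnb3 stood at 4.45 (3.70 to 5.31), 9.41 (8.27 to 10.7), 2.08 (1.39 to 2.99) and 0.621 (0.202 to 1.45) CPM, the last from 5 UMIs. Aire-positive cells held Gnb3 at 8.96 (7.86 to 10.2), 26.0 (18.1 to 36.2) and 5.73 (4.57 to 7.10) CPM in WT-Control, WT-RANKL-Ab and Cd40-/- Control. Cells that passed no gate exceeded 10 CPM for some of these genes, with Rgs13 at 17.9 and Avil at 12.9 CPM in WT-Control. In WT-RANKL-Ab they held Avil at 18.3 and Trpm5 at 10.6 CPM. Small classes gave scattered values above 10 CPM, as 32.5 CPM (14.8 to 61.6) of Gnat3 from 9 UMIs in the 40 enterohepatic-gated cells of Cd40-/- Control. Its 104 keratinocyte-gated cells had 24.3 CPM (13.9 to 39.4) of Rgs13 from 16 UMIs.

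**Figure D5:**
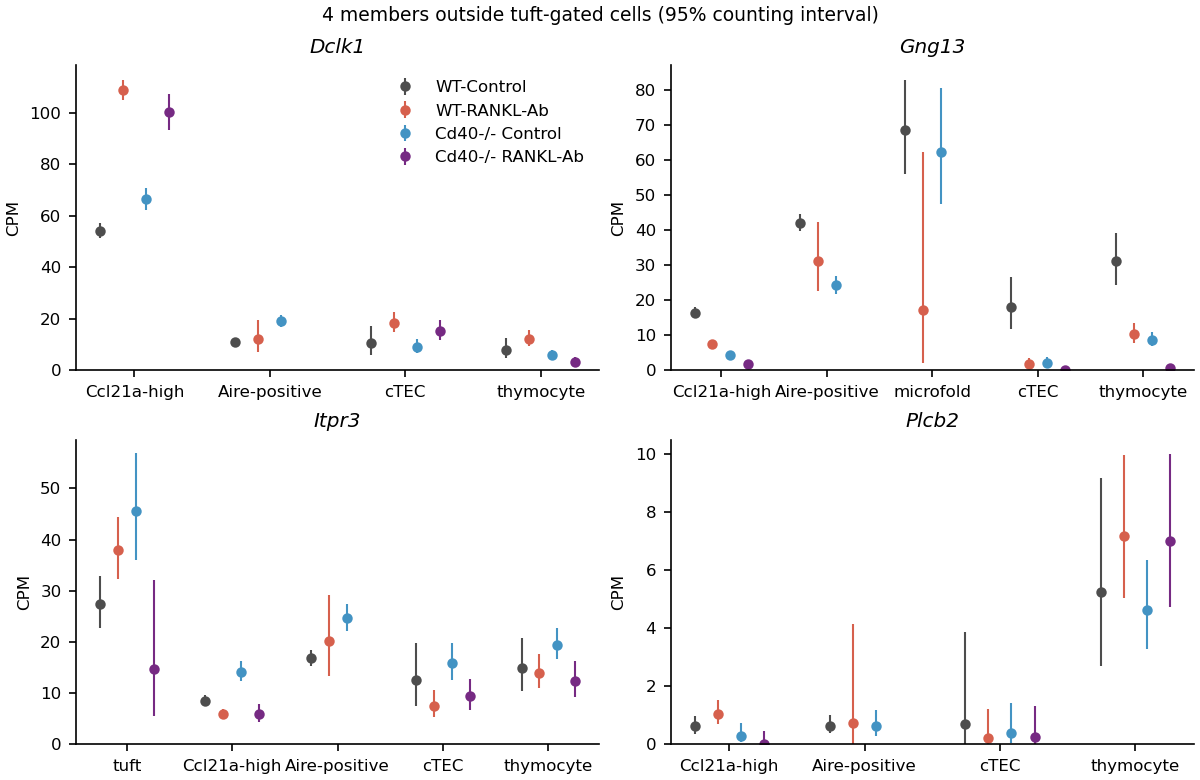
Level of Dclk1, Gng13, Itpr3 and Plcb2 (vertical axes, CPM from 0) in classes outside the tuft gate, with tuft-gated cells added for Itpr3, in each library that had at least 20 cells of the class, with 95% counting intervals. Dclk1 stands at 54.2 to 109 CPM in Ccl21a-high cells, and Plcb2 at 4.62 to 7.20 CPM in thymocyte-gated cells.

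The receptors at the head of the pathway were detected at low levels. Of 38 taste receptor genes in the files (Tas1r and Tas2r), 25 had at least 10 UMIs in the tuft-gated cells of the 4 libraries together, 4 had none, and 19 were at least 8-fold higher in tuft-gated cells in every library. Of all 14388 genes with at least 10 such UMIs, 2.23% met this in every library. Tas2r105, a bitter receptor, had 51.9, 81.3, 71.6 and 76.4 CPM in the order of the libraries. The umami receptor genes Tas1r1 and Tas1r3 had 11.3, 17.5, 15.4 and 7.4 CPM, and 13.4, 14.8, 15.4 and 17.2 CPM.

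Other subunits and effectors of the pathway were mostly shared with the rest of the TECs. None of 8 alpha subunit genes with at least 10 UMIs and none of 9 beta and gamma subunit genes was at least 8-fold higher in tuft-gated cells in all libraries. Gnai2, an inhibitory alpha subunit, stood at 753 CPM in WT-Control tuft-gated cells against 315 CPM elsewhere. Among phospholipases Plcg2 was 15.0-fold, 29.9-fold, 12.2-fold and 30.9-fold higher in tuft-gated cells. Itpr2, another IP3 receptor gene, was at 214, 307, 293 and 419 CPM and 6.13-fold, 6.32-fold, 6.01-fold and 8.36-fold higher than elsewhere, so its enrichment exceeded that of Itpr3 in each library. Among the regulators Rgs2 was 30.3-fold, 21.6-fold, 28.4-fold and 19.8-fold higher. Rgs21, known from taste cells, stood at 61.2, 121, 102 and 64.0 CPM in tuft-gated cells against 0.0534 to 0.565 CPM elsewhere. Trpm4, the relative of Trpm5, was 1.4-fold to 3.0-fold higher.

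Over 57 genes of the receptor, subunit, effector, channel and regulator lists with at least 10 UMIs, the antibody in wild-type mice again went mostly with higher levels. In WT-RANKL-Ab over WT-Control, 12 of the 47 for which these libraries held 20 or more UMIs were past 2-fold higher and 1 lower, with a median log2 ratio of 0.60, beside 3.21% and 7.02% of all genes and a median of 0.11. Of the 12, 10 were bitter receptors, among them Tas2r109 at 1.78 (1.27 to 2.31) and Tas2r107 at 1.93 (1.11 to 2.83), and the others were Gng11 and Plcb3. The lower gene was Gnb4, at -1.53 (-1.96 to -1.12). In Cd40-/- RANKL-Ab over Cd40-/- Control, 1 of 31 was past 2-fold higher and 2 lower, with a median of -0.08, and these counts are near the 3.99% and 7.31% of all genes. These receptor values rest on few UMIs, as 42 and 135 for Tas2r109.

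The genes most like the members were found over 42 sums of a class in a library, by the Pearson correlation with the mean log2 level of the 9. The 10 highest ran from 1810046K07Rik at 0.99 to Ptgs1 at 0.97, and between them were Ly6g6f, Sh2d7, Srpx2, Pcdh20, Prss53, Tubg2 and Gm4952. Ptgs1 encodes cyclooxygenase 1, which begins prostaglandin synthesis. Among the members themselves the correlation with the mean was 0.90 for Dclk1 and 0.44 for Itpr3, and 0.94 to 0.99 for the other 7. The points come from 4 libraries, and the correlation is set largely by the tuft-gated sums, so it is given as a description.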

How the data were processed

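The 4 libraries were made from sorted TECs with a 10x Genomics 3′ kit, given as version 3.1 in the methods of the study and as version 2 in the labels. The authors used fastp for trimming and Cell Ranger for mapping to mm10 and UMI counting, in version 5.0.1 per the file headers and 5.1 in the submitters' processing notes. The deposited values are counts, with no normalization. No removal of doublets is given in the sources used here, and none was done.

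Barcodes under 200 genes or over 25% mitochondrial UMIs were left out. A class needed 4 of its listed markers (6 of 7 for cTEC), or at least 20 UMIs per 10000 of Ccl21a (Ccl21a-high). Aire-positive cells had at least 2 UMIs per 10000 of Aire and Ccl21a below its limit. Cells passing more than 1 of the tuft, cTEC, microfold, neuroendocrine, ciliated, keratinocyte and enterohepatic gates were left out of the classes. A call by 1 of these gates replaced a cycling, Ccl21a-high or Aire-positive call, and a thymocyte call replaced any other. The thresholds were set after the spread of the markers had been seen, and the members and lists were chosen with earlier results of these data known. UMIs were summed per class and library and given per 1000000 UMIs of the class (CPM).

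With 1 library per condition there was no test between conditions. Intervals are exact Poisson for CPM, Clopper-Pearson for shares, and conditional binomial for ratios, all at 95%, and cover counting error only. A count of 0 was given a floor of 3 counts. What a 0 is said to allow is this floor and not the end of its interval, which lies higher. Past 2-fold means a log2 ratio of at least 1 in size with an interval apart from 0, over genes for which the 2 libraries held 20 or more UMIs in sum. Classes under 20 cells were not reported. All 9 members are named in every library, and other pathway genes were counted, and eligible to be named, from 10 UMIs in tuft-gated cells. Like genes needed 50 UMIs and were ranked on log2(CPM + 10). One of the genes of the tuft gate and one of the like genes are not reported here by name.

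To compare shares of cells, each cell was thinned at random to 1000 UMIs and shallower cells were left out. Positions are from GENCODE M21 on GRCm38, and promoters from RefSeq on GRCm38.p6. The scripts were tested on simulated data and used matplotlib 3.10.9, pandas 2.3.3, scipy 1.17.1 and numpy 2.4.6 on Python 3.11.15. Alternatives were other tuft gates and lists, limits on depth and mitochondrial UMIs, removal of the deepest cells, size factors, mean CPM per cell and thinning. Keeping cells with a further gate, leaving out shared barcodes, a higher Ccl21a limit and scaling without Ccl21a were added after the data had been seen.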

Additional observations from a re-analysis of the deposited data

Results flagged for a closer look

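Gng13 and Itpr3 were singled out because the antibody went with opposite directions in the 2 genotypes in tuft-gated cells, with both counting intervals apart from 0. For Gng13 the log2 ratio of antibody over control was -0.44 in wild-type mice and 1.50 in Cd40-/- mice, a difference of 1.94 (1.82 to 2.06). For Itpr3 the log2 ratios were 0.47 and -1.62, a difference of -2.09 (-3.34 to -0.84), and the last rests on 6 UMIs. Outside tuft-gated cells, Gnb3 in Ccl21a-high cells had log2 ratios of 1.08 and -1.74, a difference of -2.82 (-4.23 to -1.42). Its level in Cd40-/- RANKL-Ab there rests on 5 UMIs. Each value compares single libraries, so the difference between genotypes was not tested against the spread between mice.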

How the results depend on the processing

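No paired analysis was possible because each condition had 1 library. The nine-member log2 ratio kept its direction in each comparison over 12 alternatives, from 0.22 to 0.46 in WT-RANKL-Ab over WT-Control, -0.30 to -0.08 in Cd40-/- Control over WT-Control, 0.47 to 0.82 in Cd40-/- RANKL-Ab over WT-Control, 0.62 to 0.93 over Cd40-/- Control and 0.24 to 0.36 over WT-RANKL-Ab. This ratio is of the summed CPM, so members with many UMIs weigh most. In Cd40-/- Control over WT-Control it was below 0 although 6 members were higher, with a median log2 ratio of 0.26 over the members. Median-of-ratios size factors shifted log2 ratios against WT-Control by about -0.15, and by -0.01 in the other comparisons. They put 1 member, Gng13, past 2-fold in Cd40-/- Control over WT-Control in place of 0. In Cd40-/- RANKL-Ab over WT-Control, 2 members were past 2-fold with a gate of 3 markers, 1 with cells of at least 2000 UMIs and 1 with the mean of each cell's CPM. Over Cd40-/- Control, 1 in place of 3 was past it after thinning to 1000 UMIs, and over WT-RANKL-Ab, 2 in place of 1 with a gate of 3 markers. The shares of all genes past 2-fold were not computed under these alternatives. The tuft share depended on the gate. In WT-Control it was 5.30% with 3 markers, 4.12% with 5, 3.53% with 6, 3.06% with a list of 7 genes, 5.102% with cells of at least 2000 UMIs and 1.83% after thinning to 1000 UMIs. In WT-RANKL-Ab it was 8.82% with 3 markers, 6.87% with 6, 5.85% with 7 genes, 9.01% with 2000 UMIs and 4.77% thinned. In Cd40-/- Control these settings gave 3.32%, 2.17%, 1.86%, 3.45% and 1.43%, and in Cd40-/- RANKL-Ab thinning gave 1.25%. The share of tuft-gated cells with 5 or more members was 58.9%, 77.7%, 68.1% and 90.6% at 2000 UMIs and 90.3%, 93.4%, 89.96% and 98.1% without thinning. Of the recomputed log2 ratios of the members and of their sum in tuft-gated cells, 462 stayed within the counting interval and 132 moved past it. In 3 more, a ratio whose interval had been apart from 0 reversed its direction. Gnb3 in Cd40-/- Control over WT-Control went from -0.14 to 0.0024 with 7 genes, and Dclk1 in Cd40-/- RANKL-Ab over Cd40-/- Control from 0.20 to -0.0080 with 6 markers and -0.071 with 7 genes. Plcb2 in Cd40-/- RANKL-Ab over WT-Control, whose interval included 0, ran from -0.15 to 0.23. Outside tuft-gated cells, 244 levels stayed and 10 moved. Dclk1 in Ccl21a-high cells stayed within it in all 32 recomputations. The cause of these shifts was not tested. The 54 tuft-gated cells of Cd40-/- RANKL-Ab limit what depth can show there.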
